A study of Mus musculus with 8 samples.

Results

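The genes described here are the clustered histone genes: all gene rows whose mouse symbol starts with Hist1h, Hist2h, Hist3h or Hist4h and that held 10 or more UMIs over the 4 RNA libraries of the series. A UMI (unique molecular identifier) marks 1 captured RNA molecule. Of 67 such symbols in the annotation, 61 met the rule, out of 32285 gene rows, of which 14024 held 10 or more UMIs. They comprised 5 linker histone genes, Hist1h1a to Hist1h1e, and 56 core histone genes, namely 15 for H2A, 16 for H2B, 12 for H3 and 13 for H4. The 6 symbols left out were Hist2h2aa2 with 2 UMIs, Hist1h2ah with 1 UMI, and Hist1h2bq, Hist1h1t, Hist1h2ba and Hist1h2aa with 0 UMIs. The cells were conventional CD4+ T cells sorted as CD44+, Foxp3-YFP negative, TCRβ+ and CD11b negative, from Foxp3-Cre-YFP mice with experimental autoimmune encephalomyelitis (EAE), an autoimmune inflammation of the central nervous system that serves as a model of multiple sclerosis. The 4 groups were brain without meninges at day 14 and at day 50 after immunization, and spinal cord at day 14 and at day 50, with 1 RNA library each. All 4 groups shared the reporter genotype and the disease, no healthy or untreated group was analysed here, and the labels did not state how many mice each library pooled. Each group is 1 library, no test between tissues or days was run (an additive model of tissue and day would leave 1 residual degree of freedom), and every interval between libraries covers counting error only.

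Histones are the proteins that package DNA. Core histones H2A, H2B, H3 and H4 form the nucleosome, around which DNA is wound, and linker histone H1 binds where the DNA enters and leaves it and helps chromatin to fold. Most clustered histone genes are replication-dependent: their messenger RNA rises when DNA is copied, and it normally ends in a stem-loop held by the stem-loop binding protein, with no poly(A) tail. Some members, such as the linker gene Hist1h1c, are known to give polyadenylated RNA outside DNA replication too. The kit used here captures poly(A) RNA, so the UMIs count the captured fraction of histone RNA, and levels of different histone genes are not molecule numbers that can be ranked against each other.

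The clustered genes sit in a few tight groups. By symbol or synonym, 60 of 61 members matched RefSeq on the GRCm38.p6 assembly, which is the mm10 build named in the submitters' processing notes. Of these, 48 lie on chromosome 13 between positions 21715711 and 23764412, 9 on chromosome 3 between 96219885 and 96270192, 2 on chromosome 11 between 58948911 and 58955192, and 1 on chromosome 6 between 136803993 and 136804431. The symbol Hist1h2ap matched 2 RefSeq genes and was given no position. The coding sequences within a class are close copies of each other, so the division of UMIs among copies is uncertain. Hist3h2a also overlaps Trim17, Hist3h2ba overlaps Gm51864 and Hist1h2be overlaps Gm33387.

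The 150 bases before the start of the 5 linker genes are shown because these genes share a class and yet differed in how they varied between cells. The windows are from RefSeq on GRCm38.p6, on the strand of the gene. They are chr13:23763518-23763667 on the plus strand for Hist1h1a, chr13:21780626-21780775 on the minus strand for Hist1h1b and chr13:23738657-23738806 on the plus strand for Hist1h1c. They are chr13:23554882-23555031 on the plus strand for Hist1h1d and chr13:23622559-23622708 on the minus strand for Hist1h1e. The core genes Hist1h2ae (H2A, chr13:23571221-23571370, minus strand), Hist1h3c (H3, chr13:23745522-23745671, minus strand) and Hist3h2ba (H2B, chr11:58948761-58948910, plus strand) are shown beside them as 2 genes with a large difference between cycling and other cells and 1 without. Capitals mark matches to 4 motifs on either strand. CCAAT is the sequence bound by the factor NF-Y. AAACACA is a box known from promoters of linker histone genes. ATTTGCAT is the octamer bound by Oct factors. TATAAA is a form of the TATA box. None of the motifs contains another.
Hist1h1a: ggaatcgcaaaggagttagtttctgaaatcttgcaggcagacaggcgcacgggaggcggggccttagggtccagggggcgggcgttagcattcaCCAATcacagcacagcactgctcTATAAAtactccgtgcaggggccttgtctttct
Hist1h1b: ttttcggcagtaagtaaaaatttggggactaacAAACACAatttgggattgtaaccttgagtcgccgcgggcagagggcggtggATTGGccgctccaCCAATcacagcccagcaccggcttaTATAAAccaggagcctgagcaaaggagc
Hist1h1c: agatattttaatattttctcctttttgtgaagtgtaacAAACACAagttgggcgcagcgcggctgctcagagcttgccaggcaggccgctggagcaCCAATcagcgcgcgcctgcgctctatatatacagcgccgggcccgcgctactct
Hist1h1d: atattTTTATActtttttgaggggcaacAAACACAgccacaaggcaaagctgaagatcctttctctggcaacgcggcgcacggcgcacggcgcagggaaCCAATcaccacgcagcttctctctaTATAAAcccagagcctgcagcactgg
Hist1h1e: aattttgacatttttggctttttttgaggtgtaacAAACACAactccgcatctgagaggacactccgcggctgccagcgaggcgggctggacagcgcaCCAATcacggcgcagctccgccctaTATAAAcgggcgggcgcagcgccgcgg
Hist1h2ae: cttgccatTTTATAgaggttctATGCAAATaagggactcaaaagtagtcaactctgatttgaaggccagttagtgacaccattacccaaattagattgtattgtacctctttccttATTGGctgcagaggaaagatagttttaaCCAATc
Hist1h3c: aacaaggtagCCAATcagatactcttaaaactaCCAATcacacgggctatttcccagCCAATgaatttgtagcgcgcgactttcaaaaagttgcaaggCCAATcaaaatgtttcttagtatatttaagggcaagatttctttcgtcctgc
Hist3h2ba: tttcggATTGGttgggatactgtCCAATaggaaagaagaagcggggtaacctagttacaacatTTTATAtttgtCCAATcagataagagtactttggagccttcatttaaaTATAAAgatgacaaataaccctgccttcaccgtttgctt

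All 5 linker windows held CCAAT, with the match nearest the start lying 51 to 56 bases before it. CCAAT was also present in 14 of 14 H2A, 14 of 14 H2B and 8 of 10 H3 windows but in 3 of 12 H4 windows, against 25.3% of all 27025 RefSeq promoters cut to the same length. AAACACA stood 112 to 122 bases before the start of Hist1h1b, Hist1h1c, Hist1h1d and Hist1h1e and was not in the window of Hist1h1a. It was in 1 of 14 H2A and 1 of 14 H2B windows, in 0 of 10 H3 and 0 of 12 H4 windows, and in 3.50% of all promoters. The octamer ATTTGCAT was in 4 of 14 H2A and 5 of 14 H2B windows and in 0 of 5 linker windows, against 1.02% of all promoters. TATAAA was in the windows of 4 of 5 linker genes, all but Hist1h1c, and in 8.08% of all promoters. It was also in 6 of 14 H2A, 3 of 14 H2B, 4 of 10 H3 and 5 of 12 H4 windows. The window of Hist1h1c holds the letters tatatata, which were not counted as a match. Of the 60 members with a position, 55 had a promoter entry, which also gave the strand. Among these, an H2A and an H2B gene pointed away from each other in 6 places, with 164 to 249 bases between their starts. Pairs that involve a member with no strand, such as Hist1h2bc, could not be counted. The windows of each such pair overlap, so 1 site can be counted for both an H2A and an H2B gene. In the pair Hist1h2ae and Hist1h2bg, 180 bases apart, 1 octamer match lies in both windows. The TATAAA match of Hist1h2ae, 142 bases before its start, is also the match 43 bases before the start of Hist1h2bg. These matches describe letters in the windows and do not show that a factor binds there.

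The 4 libraries kept 10313, 348, 9270 and 1620 cells (every series of 4 values gives the brain before the spinal cord, and day 14 before day 50 within a tissue), after removal of cells with fewer than 500 genes or more than 10% mitochondrial UMIs. They held 47272714, 1177903, 50710551 and 6078142 UMIs. Of these, 28288, 1005, 34050 and 2420 were clustered histone UMIs, so the brain day 50 library, with the fewest cells, carried the widest intervals. T cell receptor, CD3 or CD4 genes were seen in at least 99.96% of cells in each library, and Foxp3 stood at 0 to 0.165 counts per 1000000 UMIs (CPM). Pairs of libraries shared 0 to 33 cell barcodes, at most 0.575% of the smaller library. The dendritic cell list (Cd74, MHC class II genes, Itgax and Flt3) stood at 114 CPM in the brain day 50 library and between 11.5 and 15.7 CPM in the other 3. That list fell to 5.94 CPM in the brain day 50 library when the 2 cells richest in it were left out, and its part in the brain day 50 histone values was not tested.

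The 61 histone genes together made up 598, 853, 671 and 398 CPM. The sum of the 5 linker genes was 267, 413, 378 and 186 CPM, and that of the 56 core genes was 331, 440, 293 and 212 CPM. Both sums were thus lowest in the spinal cord day 50 library and highest in the brain day 50 library. Among core classes, H2A held 113, 110, 132 and 70.4 CPM, H2B 111, 142, 65.8 and 68.9 CPM, H3 37.9, 62.8, 33.9 and 20.4 CPM and H4 68.9, 126, 61.6 and 52.0 CPM.

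Among the linker genes, Hist1h1c, one of the main H1 subtypes of non-dividing cells, was at 125, 263, 104 and 132 CPM, with its highest value in the brain day 50 library. Hist1h1e, another H1 subtype, was at 76.4, 81.5, 174 and 33.4 CPM. It therefore spanned a wider range than Hist1h1c as a ratio of highest to lowest level, and was highest in the spinal cord at day 14. Hist1h1b was at 45.0, 34.8, 70.1 and 10.7 CPM, Hist1h1d at 15.4, 31.4, 22.6 and 7.24 CPM, and Hist1h1a at 5.80, 2.55, 7.20 and 2.96 CPM. Apart from Hist1h1c and Hist1h1a, the linker genes were lowest in the spinal cord at day 50. The intervals of Hist1h1a in the libraries of day 50 overlapped.

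The core genes with the most UMIs did not share 1 order over the libraries. Hist1h2ae, an H2A gene, was at 42.6, 17.8, 55.3 and 15.8 CPM, and so was higher at day 14 than at day 50 in both tissues. Hist3h2ba, an H2B gene of the chromosome 11 group, was at 29.7, 50.9, 20.7 and 38.3 CPM, and its H2A neighbour Hist3h2a at 11.4, 27.2, 8.16 and 26.7 CPM. These neighbours were higher at day 50 in both tissues. Hist1h2bc, an H2B gene, was at 40.3, 22.9, 7.67 and 11 CPM and was the core gene with the lowest ratio of spinal cord to brain at day 14. In the brain day 14 library, 11% of its UMIs came from 2 cells, with 183 in 1 of them.

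Hist1h2ap (H2A) was at 30.7, 27.2, 24.1 and 14.3 CPM, Hist1h4d (H4) at 19.6, 29.7, 25.3 and 18.6 CPM and Hist1h4i (H4) at 20.5, 18.7, 12.9 and 13.0 CPM. These genes differed less between libraries than Hist1h2ae. Hist2h2ac, an H2A gene of the chromosome 3 group, was at 9.43, 12.7, 20.9 and 4.28 CPM, the same order over the spinal cord libraries as Hist1h1e. Hist1h4c (H4) was at 6.71, 26.3, 5.60 and 6.42 CPM, with 31 UMIs in the brain day 50 library, which stood above the other 3. The core members not named so far had 15 to 1077 UMIs over the kept cells. The lowest level that 3 UMIs give was 0.0635, 2.55, 0.0592 and 0.494 CPM, so members near 1 CPM could not be followed in the brain day 50 library. Hist1h2ab, for example, had 0 UMIs there, which allows up to 2.55 CPM.

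**Figure D1:**
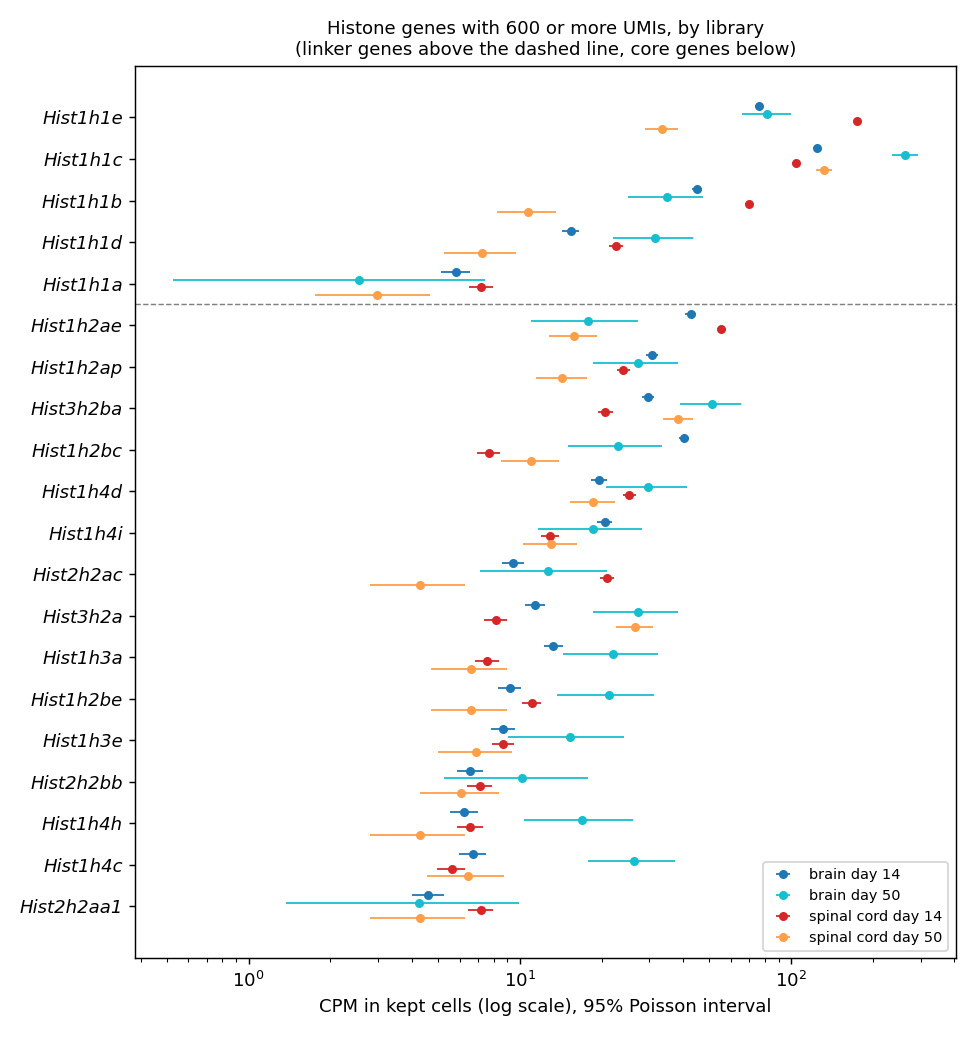
Level of the 20 histone genes with the most UMIs in each of the 4 libraries, in CPM (log axis), with 95% Poisson intervals. Linker genes stand above the dashed line. Hist1h1e spans 33.4 to 174 CPM and Hist1h1c 104 to 263 CPM.

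Cells were then ordered by how many of 95 cell-cycle genes they held, a panel of 45 genes of DNA replication and 50 genes of G2 and mitosis that contains no histone gene. A cell with 5 or more panel genes was called cycling, which held for 24.5%, 8.91%, 33.9% and 8.58% of cells. The number of panel genes per cell had no gap at 5, since 1215, 28, 1489 and 186 cells held exactly 4 and 806, 15, 1029 and 66 held exactly 5. The call also followed depth: in cells thinned to 2000 UMIs it held for 7.51%, 4%, 6.51% and 1.67%.

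Over the panel groups used, histone RNA did not climb in even steps. In the spinal cord at day 14, core histones held 164, 159, 165, 164 and 168 CPM in cells with 0, 1 or 2, 3 or 4, 5 to 7 and 8 to 11 panel genes, and 1414 CPM in cells with 12 or more. In the brain at day 14 the same core sum was 210, 208, 198, 200, 250 and 1192 CPM. The linker sum in those libraries was 245 and 202 CPM at 8 to 11 panel genes and 1414 and 658 CPM at 12 or more. Most of the rise thus fell in the last group, which held 583, 4, 520 and 13 cells, or 5.65%, 1.15%, 5.61% and 0.802% of the libraries. That group has no upper limit, and the course of histone RNA within it was not examined. In the libraries of day 50 the core sum also rose in that group, to 2491 CPM in the brain and 1864 CPM in the spinal cord, from 373 and 178 CPM in cells with fewer than 12 panel genes. Cells with 12 or more panel genes were deeper, with a median of 9446, 10862, 9322 and 8127 UMIs against 3877, 2987, 4811 and 3461 in the cells with fewer.

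The 5 linker genes differed in this jump. Hist1h1b was at 291, 482, 587 and 338 CPM in cells with 12 or more panel genes and at 9.30, 20.2, 10.2 and 4.03 CPM in cells with fewer. Hist1h1e was at 183, 268, 516 and 165 CPM against 60.9, 75.4, 135 and 30.7 CPM. Hist1h1c was at 113, 214, 166 and 115 CPM against 127, 265, 96.8 and 132 CPM. Hist1h1b was therefore far higher in the cells rich in panel genes in all 4 libraries and Hist1h1e moderately so, while Hist1h1c was higher in 1 library and lower in 3. Hist1h1d was at 46.8, 53.6, 98.1 and 115 CPM against 10.8, 30.7, 13.8 and 5.04 CPM, and Hist1h1a at 23.6, 26.8, 47.5 and 16.5 CPM against 3.22, 1.75, 2.53 and 2.69 CPM. In the brain day 50 library these values rest on 4 cells, with 1 UMI of Hist1h1a and 2 of Hist1h1d.

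Core genes fell into similar kinds. Hist1h2ae was at 296, 214, 473 and 511 CPM in cells with 12 or more panel genes against 5.98, 11.4, 6.80 and 5.71 CPM in cells with fewer. Hist1h2ap was at 194, 402, 195 and 429 CPM against 7.10, 14.9, 4.27 and 5.88 CPM. Both H2A genes behaved like Hist1h1b. The H3 gene Hist1h3c was at 35.5, 134, 62.4 and 74.2 CPM against 0.218, 0, 0.176 and 0 CPM, the last from 9, 0, 8 and 0 UMIs. Hist3h2ba, by contrast, was at 41.5, 134, 19.9 and 33.0 CPM against 28.0, 48.2, 20.8 and 38.4 CPM, with 5 UMIs behind the value of 134.

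**Figure D2:**
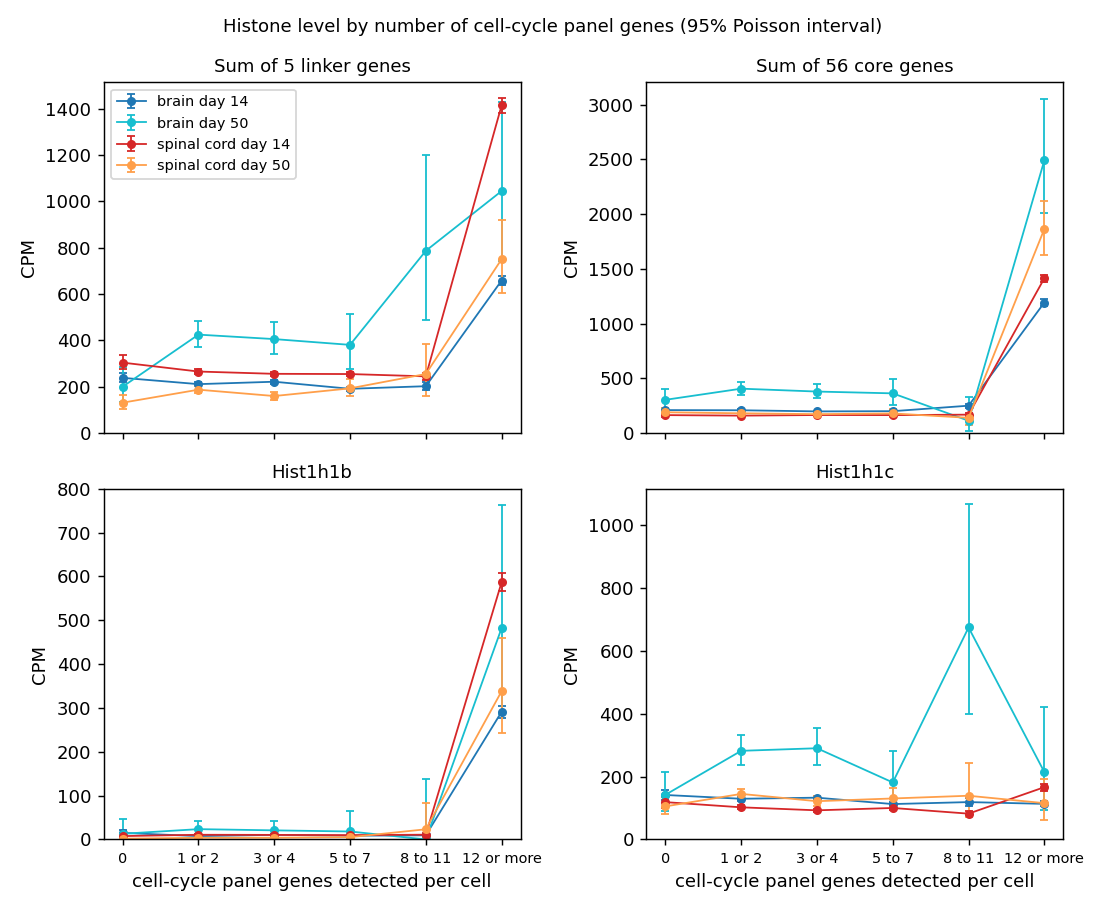
Level (CPM, linear axis) of the linker sum, the core sum, Hist1h1b and Hist1h1c by number of cell-cycle panel genes in a cell, 1 line per library, with 95% Poisson intervals. The linker and core sums of the day 14 libraries change little up to 8 to 11 panel genes and are far higher in the open-ended group with 12 or more. Hist1h1c is higher in those cells in the spinal cord at day 14 (166 against 96.8 CPM) and lower in them in the other 3 libraries.

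Cycling and other cells were compared in edgeR's quasi-likelihood test on UMI sums per library and state, with the library as a block. The 4 libraries are different tissues and days, and the test fits 1 average difference over them, in which libraries with more UMIs weigh more. A gene can therefore be called although not every library goes the same way. Of the 61 members, 40 passed the filter on low counts; 30 of these were higher in cycling cells and 1 was lower, at a Benjamini-Hochberg adjusted p under 0.05. Among all 10968 genes tested, 13.1% were higher and 10.8% lower. The median log2 fold change was 0.91 over the 40 members and -0.01 over all genes. Without the brain day 14 library 16 of 28 members were higher, where 341 of 9269 genes were, and without the spinal cord day 14 library 17 of 30 were, where 514 of 9110 genes were. With no library block 12 of 40 members and 223 of 10968 genes were called higher. The low-count filter can keep a gene on the sums of 1 state alone. With no such filter 38 of 61 members were higher and 1 lower, where 1441 and 1297 of 18323 genes were.

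Of the linker genes, 4 of 5 were higher in cycling cells. Hist1h1b was at 101, 115, 147 and 58.7 CPM in cycling cells and at 9.54, 20.9, 10.3 and 3.59 CPM in other cells, which did not overlap, and its log2 fold change was 3.55 ± 0.09 (SE). Hist1h1a had a log2 fold change of 1.76 ± 0.17, Hist1h1d of 1.05 ± 0.10 and Hist1h1e of 0.69 ± 0.07, the last with an adjusted p of 1.32e-10. Hist1h1d ran against this in the brain at day 50, with 17.2 CPM in cycling cells against 33.9 CPM in other cells, from 3 and 34 UMIs. Hist1h1c was at 114, 264, 112 and 129 CPM in cycling cells and 132, 263, 97.6 and 133 CPM in other cells, and it did not pass the test (log2 fold change -0.08 ± 0.07, adjusted p = 0.41).

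Of the core genes tested, 26 of 35 were higher and 1 was lower. By class these were 8 of 11 H2A, 9 of 11 H2B, 5 of 6 H3 and 4 of 7 H4 genes, with 1 H2A gene lower. Hist1h2ae had a log2 fold change of 3.95 ± 0.09, Hist1h2ap of 3.26 ± 0.09, Hist1h2bm of 3.63 ± 0.24 and Hist1h2bj of 2.80 ± 0.18. Hist1h2af, an H2A gene, had 89, 4, 77 and 6 UMIs in cycling cells and 0 UMIs in the other cells of all 4 libraries. Hist1h3c had 216, 5, 335 and 9 UMIs in cycling cells and 5, 0, 2 and 0 UMIs in other cells. These genes were thus almost absent outside the called cells at this depth. With 0 UMIs in other cells, Hist1h2af passed the low-count filter through its cycling sums alone.

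Smaller differences were seen for Hist1h2bc (1.11 ± 0.08), Hist1h4i (1.06 ± 0.10), Hist2h2ac (0.91 ± 0.10), Hist1h3e (0.91 ± 0.13), Hist1h4d (0.88 ± 0.08) and Hist1h4h (0.81 ± 0.15), all log2 fold changes with SE from edgeR and all called higher. Hist2h2bb (0.54), Hist1h4c (0.47), Hist2h2aa1 (0.46), Hist1h3a (0.43) and Hist1h2be (0.39) were called higher with log2 fold changes under 0.6. The only member called lower was Hist3h2a, at -0.43 ± 0.11 (adjusted p = 0.0040); its level was 9.54, 17.2, 7.31 and 19.2 CPM in cycling cells and 12.5, 28.9, 8.83 and 27.8 CPM in other cells. Hist3h2ba, beside it on chromosome 11, was at -0.01 ± 0.07 (adjusted p = 0.92), and Hist2h4, Hist4h4, Hist1h4a, Hist1h2ac, Hist2h3b, Hist2h2ab and Hist1h2br did not pass either. Hist3h2a was not called when cells were thinned, under other limits for cycling, with DESeq2, with no library block, or without either library of day 14.

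A limit of 12 panel genes was added after the jump had been seen. It left 3 libraries, since the brain day 50 library had only 4 such cells, and 35 of 39 members tested were then higher and 0 lower, against 22.2% and 19.4% of 10154 genes. The log2 fold changes were larger throughout the linker class: 5.45 ± 0.11 for Hist1h1b, 3.53 ± 0.17 for Hist1h1a, 2.55 ± 0.11 for Hist1h1d and 1.78 ± 0.09 for Hist1h1e. Hist1h1c was called higher as well, at 0.26 ± 0.09 (adjusted p = 0.011), although its level was higher in the spinal cord at day 14 only and lower in the brain at day 14 and the spinal cord at day 50. This fit differs from the one before in both the limit and the library left out. For core genes, Hist1h2ae had 5.91 ± 0.11, Hist1h2ap 5.17 ± 0.10 and Hist1h2bc 1.56 ± 0.12. The 4 members not called were Hist3h2ba (adjusted p = 0.063), Hist3h2a (0.23), Hist2h4 (0.32) and Hist4h4 (0.77). These 4 lie on chromosomes 11, 3 and 6, outside the large group on chromosome 13, although other chromosome 3 members such as Hist2h2ac (2.13 ± 0.12) and Hist2h2bb (1.53 ± 0.19) were called.

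**Figure D3:**
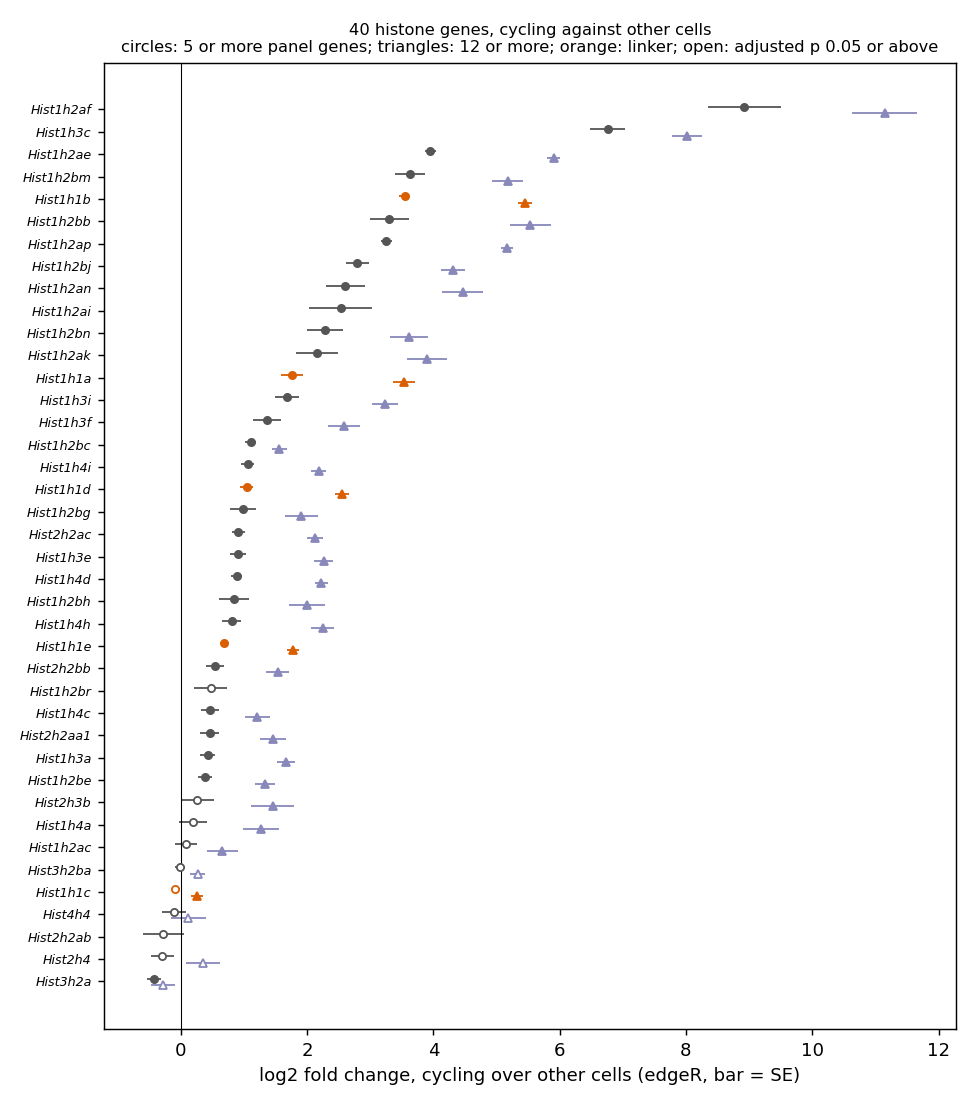
Log2 fold change of 40 histone genes between cycling and other cells from edgeR, with SE as bars. Circles use a limit of 5 panel genes over 4 libraries and triangles a limit of 12 over 3 libraries, linker genes are orange, and open symbols have an adjusted p of 0.05 or above. Hist1h1b and Hist1h2ae lie far to the right, and Hist1h1c, Hist3h2ba and Hist3h2a lie near 0.

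Among cycling cells, those with a larger share of the replication genes than of the G2 and mitosis genes were called S-type and the reverse G2M-type. There were 1953, 26, 2780 and 124 S-type and 571, 5, 360 and 15 G2M-type cells. Of the S-type cells, 313 in the brain and 401 in the spinal cord at day 14 held 12 or more panel genes. Of the G2M-type cells, 269 and 117 did. Most S-type cells of day 14 thus lay below the group in which histone sums rose. A smaller share of them reached it than of G2M-type cells, and its part in the counts that follow was not tested. The types are calls from detected genes and do not measure DNA replication. Histone RNA was lower in the S-type cells: 27 of 28 members tested were lower and 0 higher (edgeR, adjusted p under 0.05), where 5.92% of 8003 genes were lower and 2.41% higher. This held for 5 of 5 linker genes and 22 of 23 core genes, all but Hist3h2a. Log2 fold changes, S-type over G2M-type, were -3.17 ± 0.09 for Hist1h1b, -1.80 ± 0.09 for Hist1h1e, -0.89 ± 0.09 for Hist1h1c, -3.53 ± 0.09 for Hist1h2ae and -1.07 ± 0.14 for Hist3h2ba. Without the brain day 14 library 14 of 15 members tested were lower, where 121 of 4701 genes were. Without the spinal cord day 14 library 12 of 13 were, where 121 of 4422 genes were.

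The same direction was seen among cells with 12 or more panel genes, where 32 of 34 members were lower in S-type cells and 0 higher, against 4.88% and 2.79% of genes. In the spinal cord at day 14, the linker sum was 670 CPM in 401 S-type cells and 3906 CPM in 117 G2M-type cells, and the core sum was 611 and 4105 CPM. In the brain at day 14 the linker sum was 390 and 1027 CPM and the core sum 634 and 1959 CPM, in 313 and 269 cells. In both libraries the G2M-type cells thus held the higher linker and core sums. The phases here are calls from detected genes, with median depths of 9140 and 9571 UMIs in the spinal cord and 10360 and 8594 UMIs in the brain.

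Histone UMIs were concentrated in few cells. The 1% of cells richest in them held 24.0%, 13.1%, 37.3% and 17.5% of all histone UMIs, and 1 cell reached 489, 49, 359 and 67. In cells thinned to 2000 UMIs, 74, 2, 96 and 5 cells still had 10 or more histone UMIs, and 73, 1, 95 and 5 of these were cycling cells. The median of all thinned cells was 1, 1, 1 and 0 histone UMIs. Genes of the high kind came together: among thinned cells of the brain at day 14, Hist1h2ae stood at 479 CPM in 311 cells with a Hist1h1b UMI and at 9.22 CPM in 8839 cells without one. In the spinal cord at day 14 the values were 813 CPM in 276 cells and 7.46 CPM in 8852 cells. Hist1h1c differed less by the same split, with 222 against 125 CPM in the brain and 321 against 96.4 CPM in the spinal cord.

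Linker genes took 44.7% (95% Clopper-Pearson interval 44.1 to 45.3), 48.5% (45.3 to 51.6), 56.3% (55.8 to 56.9) and 46.8% (44.8 to 48.8) of histone UMIs. The spinal cord day 14 library stood above the other 3, whose shares lay within 4 percentage points. Within cycling cells the share was 39.4%, 42.9%, 53.4% and 39.6%, and within other cells 51.7%, 50.2%, 61.7% and 49.0%. The linker share was thus lower in cycling cells in all 4 libraries, although the intervals of both states overlapped in the brain at day 50 (36.5 to 49.4% and 46.6 to 53.8%). The high share of the spinal cord at day 14 was present in both states.

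The 2 linker genes with the most UMIs divided differently between the libraries. Hist1h1e made up 37.9%, 23.6%, 62.6% and 20.2% of the UMIs of Hist1h1e and Hist1h1c together. In other cells it made up 32.1%, 19.5%, 58.3% and 17.4%, and in cycling cells 46.4%, 41.0%, 66.6% and 35.3%. The share of Hist1h1e was hence highest in the spinal cord at day 14, in cycling and other cells alike.

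**Figure D4:**
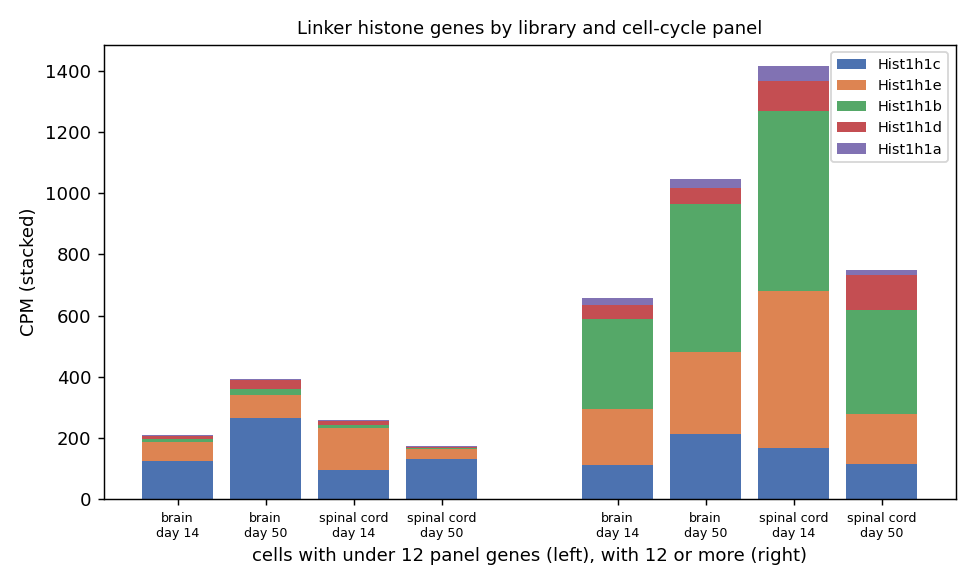
Level of the 5 linker genes (stacked, CPM) in each library, in cells with fewer than 12 panel genes on the left and with 12 or more on the right; the brain day 50 bar on the right rests on 4 cells. Hist1h1b is at 4.03 to 20.2 CPM on the left and 291 to 587 CPM on the right, and Hist1h1c at 96.8 to 265 CPM on the left and 113 to 214 CPM on the right.

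To compare days and tissues, each gene's CPM ratio was set against the median ratio of all genes with 10 or more UMIs in the pair of libraries. That median was -0.14 in the brain over time, -0.33 in the spinal cord over time, 0.20 between the tissues at day 14 and 0.04 at day 50, on the log2 scale. A gene was called where its relative ratio was at least 1.5-fold and the 95% interval excluded no change. A gene with few UMIs in the larger library could not be called lower in a far smaller one. Counts of higher and lower calls are therefore not symmetrical. These calls compare 2 libraries, and what differs between libraries other than day or tissue cannot be told apart from day and tissue.

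In the brain, 17 of 60 members compared were higher at day 50 than at day 14 and 2 were lower, where 7.33% of 12802 genes were higher and 3.23% lower. The linker sum was higher by 0.77 (0.63 to 0.90) on the log2 scale and the core sum by 0.55 (0.42 to 0.67), the latter under the 1.5-fold limit. Among linker genes, Hist1h1c rose from 125 to 263 CPM (log2 ratio 1.21, 1.04 to 1.38) and Hist1h1d from 15.4 to 31.4 CPM (1.17, 0.65 to 1.64). Hist1h1e (0.23), Hist1h1b (-0.23) and Hist1h1a (-1.05) were not called. Core genes called higher included Hist1h4c (2.11), Hist1h4h (1.58), Hist1h2bj (1.55), Hist3h2a (1.40), Hist1h2be (1.35) and Hist3h2ba (0.91), each from 19 to 60 UMIs in the day 50 library. Hist1h2ae (-1.12, -1.82 to -0.50) and Hist1h2bc (-0.68, -1.28 to -0.13) were lower.

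The share of cycling cells was 24.5% at day 14 and 8.91% at day 50, with 7 of 45 replication genes and 11 of 50 G2 and mitosis genes of the panel lower and 1 of the latter higher; their part in the histone values was not tested. With cycling cells left out, 17 of 47 members were higher and 0 lower, where 6.45% and 3.39% of genes were. Hist1h2ae then stood at 6.08 CPM at day 14 and 13.0 CPM at day 50 and was called higher (1.19, with a lower limit of 0.25), which is the opposite of its call over all cells. Hist1h1b turned as well, from -0.23 to 1.23 (0.52 to 1.87), and Hist1h2ap from -0.04 to 1.34 (0.53 to 2.05). Even over all cells, Hist1h2ae, Hist1h1b and Hist1h2ap had only 21, 41 and 32 UMIs in the day 50 library. Of the 2 thinned cells there with 10 or more histone UMIs, 1 was not called cycling. Whether cycling cells missed by the call raised these values was not tested. The linker and core sums were higher by 0.91 and 1.0. Among cycling cells only, 9 of 54 members were higher and 0 lower, where 6.63% and 0.550% of genes were, and Hist1h1e (1.17) and Hist1h1c (1.48) were the linker genes called. These cells held 174374 UMIs at day 50 against 18341172 at day 14. Members with few UMIs at day 14 could thus not be called lower, and the 0 carries little information for them. In cells thinned to 2000 UMIs only 8 members were called higher in this comparison, as 250 cells of the day 50 library remained. The share over all genes is not given for thinned cells.

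In the spinal cord, 4 of 60 members were higher at day 50 and 13 lower, where 12.9% of 13175 genes were higher and 10.3% lower. The linker sum was lower, at -0.69 (-0.78 to -0.60), and the core sum was at -0.14 (-0.22 to -0.06). All 5 linker genes were called: Hist1h1b fell from 70.1 to 10.7 CPM (-2.38), Hist1h1e from 174 to 33.4 CPM (-2.05, -2.26 to -1.85), Hist1h1d from 22.6 to 7.24 CPM (-1.31) and Hist1h1a from 7.20 to 2.96 CPM (-0.95), while Hist1h1c rose from 104 to 132 CPM (0.68, 0.57 to 0.78). Core genes called lower included Hist2h2ac (-1.96), Hist1h3c (-1.83), Hist1h2ae (-1.47), Hist1h2bj (-1.43) and Hist1h2ab, which had 167 UMIs at day 14 and 1 at day 50. Those called higher were Hist3h2a (2.04, 1.77 to 2.30), Hist3h2ba (1.22, 1.01 to 1.43) and Hist1h2bc (0.85, 0.46 to 1.23). With no median taken off, the counts were 2 higher and 21 lower. The all-gene median of -0.33 stays in these ratios, and the share over all genes is not given for this setting. Hist3h2a (1.71) and Hist3h2ba (0.89) were still called higher, while Hist1h2bc (0.52) and Hist1h1c (0.35) were under the limit.

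The share of cycling cells was 33.9% and 8.58% here, and 23 of 45 replication genes and 37 of 50 G2 and mitosis genes were lower and 0 higher; their part in the histone values was not tested. With cycling cells left out, 6 of 39 members were higher and 5 lower, where 12.7% and 10.3% of genes were, and the core sum was higher by 0.43 (0.33 to 0.53) while the linker sum was lower by 0.31 and not called. Hist1h1e kept its gap, with 136 CPM at day 14 and 28.0 CPM at day 50 (-1.99, -2.24 to -1.75), and so did Hist2h2ac, with 15.1 and 2.83 CPM (-2.12, -2.97 to -1.38). Hist1h1b went from -2.38 to -1.23 and Hist1h2ae from -1.47 to -0.04, where it was no longer called. Hist1h1c (0.74), Hist3h2ba (1.12) and Hist3h2a (1.95) were called higher. Among cycling cells only, 4 of 54 members were higher and 4 lower, where 8.40% and 4.59% of genes were, and the lower genes included Hist1h1e (-1.36), Hist1h1b (-1.02) and Hist1h1a (-2.05, from 2 UMIs at day 50). The genes of the chromosome 11 group were thus called higher at day 50 in both tissues, with and without cycling cells. Hist1h1c was too, but in the spinal cord its ratio with no median taken off was 0.35 over all cells and 0.44 without cycling cells, under the limit.

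**Figure D5:**
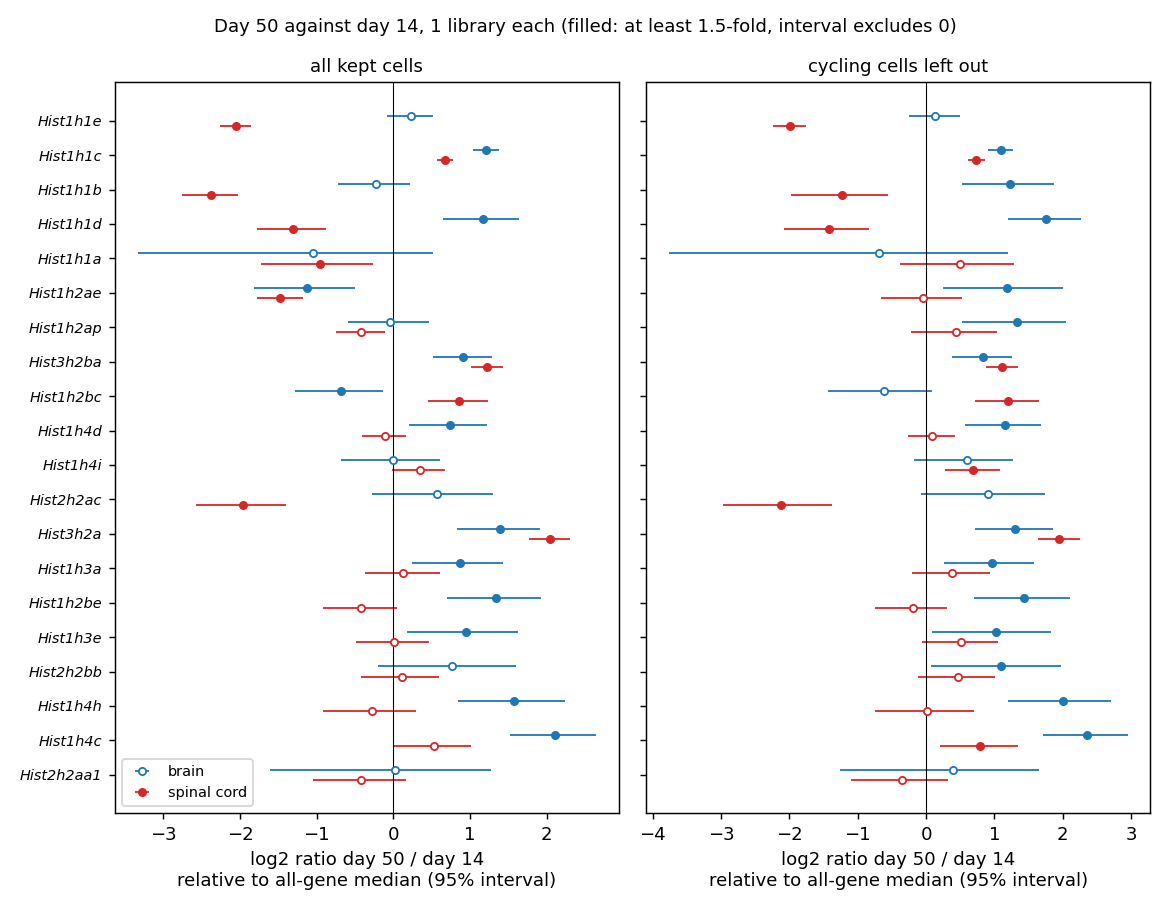
Log2 ratio of day 50 over day 14 relative to the median of all genes for 20 histone genes in brain (blue) and spinal cord (red), with 95% intervals, in all kept cells on the left and without cycling cells on the right. Filled points pass the 1.5-fold limit with an interval that excludes 0. Hist1h1e and Hist2h2ac lie near -2 in the spinal cord in both panels, while Hist1h2ae moves from -1.47 to -0.04.

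Between the tissues at day 14, 3 of 61 members were higher in the spinal cord and 18 lower, where 6.40% of 13868 genes were higher and 6.24% lower. Hist1h1e was the linker gene called, with 174 CPM in the spinal cord and 76.4 CPM in the brain (0.99, 0.94 to 1.05). Hist2h2ac, with 20.9 and 9.43 CPM (0.95, 0.79 to 1.11), and Hist1h2ad, with 37 and 10 UMIs (1.59), were the core genes called higher. Hist1h2bc had the clearest lower call, with 7.67 against 40.3 CPM (-2.59, -2.75 to -2.44). The H2B sum was lower (-0.95, -1.02 to -0.89), but without Hist1h2bc it was 58.2 against 70.7 CPM (-0.48, -0.55 to -0.41), under the 1.5-fold limit. Other H2B genes called lower included Hist1h2bg (-1.46) and Hist3h2ba (-0.72). Hist1h3a (-1.01), Hist4h4 (-0.89), Hist1h4i (-0.87) and Hist3h2a (-0.68) were lower too.

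Of the panel, 1 of 45 replication genes and 20 of 50 G2 and mitosis genes were lower in the spinal cord and 0 higher, and their part in these values was not tested. Tissue differences were seen without cycling cells as well. Of 49 members compared there, 2 were higher and 16 lower, where 6.21% and 6.25% of genes were. Hist1h1e stood at 136 and 62.4 CPM (0.91, 0.82 to 0.99), Hist2h2ac at 15.1 and 6.84 CPM (0.92) and Hist1h2bc at 5.36 and 26.3 CPM (-2.52, -2.78 to -2.26). Hist1h1c, not called over all cells, was lower in the spinal cord here, with 97.6 against 132 CPM (-0.66, -0.73 to -0.59). Among cycling cells only, 3 of 61 members were higher and 17 lower, where 6.36% and 5.41% of genes were, and Hist1h1e stood at 224 and 98.4 CPM (1.0). With no median taken off, 6 members were called higher over all cells, and Hist3h2ba (-0.52) and Hist3h2a (-0.48) were under the limit. The all-gene median of 0.20 stays in these ratios, and the share over all genes is not given for this setting.

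At day 50, 32 members had enough UMIs to compare; 0 were higher in the spinal cord and 20 lower, where 2.18% of 10309 genes were higher and 4.76% lower. The linker sum was lower by 1.18 and the core sum by 1.09 on the log2 scale. Of the linker genes, Hist1h1d (-2.15), Hist1h1b (-1.74), Hist1h1e (-1.32, -1.68 to -0.96) and Hist1h1c (-1.03, -1.22 to -0.84) were lower. Core genes with the lowest ratios and 19 or more UMIs in the brain library were Hist1h2bj (-3.48), Hist1h4c (-2.07) and Hist1h4h (-2.02). Hist1h2bj had 19 UMIs in the brain, of which 47.4% came from 2 cells, and 9 in the spinal cord. Without cycling cells 0 of 26 members were higher and 16 lower, where 1.97% and 4.65% of genes were. Among cycling cells only, 0 of 17 were higher and 5 lower, where 1.65% and 4.54% of genes were. Hist3h2a, at 26.7 and 27.2 CPM, and Hist3h2ba, at 38.3 and 50.9 CPM, were not among the genes called. Of the panel genes compared, 3 of 37 replication genes and 11 of 37 G2 and mitosis genes were lower in the spinal cord and 1 of the former higher, and their part was not tested. In this comparison the brain library has 348 cells, and thinning left 8 members called lower, with no share over all genes given.

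Genes that act with histones were read beside them, from lists of 11 variant histones, 20 genes of histone messenger RNA production and decay, and 27 histone chaperones and carriers. In cycling cells 17 of 27 chaperones tested were higher and 1 lower (edgeR, adjusted p under 0.05), where 13.1% of all genes were higher and 10.8% lower. Asf1b, which hands H3 and H4 to other chaperones, had a log2 fold change of 3.10 ± 0.13. Chaf1a (2.57 ± 0.18) and Chaf1b (1.03 ± 0.10), subunits of the complex that places new nucleosomes behind the replication fork, and the H4 acetylase Hat1 (0.74 ± 0.07) were higher as well. Of 18 genes of histone messenger RNA, 8 were higher and 0 lower, against the same shares of all genes, among them Slbp (0.51 ± 0.06), whose protein binds the stem-loop, and Eri1 (0.47 ± 0.07), an exonuclease that trims it.

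Of 10 variant histones tested, 5 were higher in cycling cells and 2 lower, where 13.1% and 10.8% of all genes were. Cenpa, the H3 variant of centromeres (1.23 ± 0.07), H2afx (1.10 ± 0.08), H2afz (0.97 ± 0.07) and H2afv (0.73 ± 0.06) were higher, and H3f3b, one of the genes for the replication-independent variant H3.3, was lower (-0.43 ± 0.08). Between days, H3f3b was higher at day 50 in the brain, from 3378 to 5581 CPM (0.86, 0.83 to 0.90), and in the spinal cord, from 2026 to 4761 CPM (1.56, 1.55 to 1.58). Npat, a coactivator of histone gene transcription, was at 23.0 CPM in the spinal cord at day 14, 6.91 CPM there at day 50 (-1.40, -1.88 to -0.96) and 11.1 CPM in the brain at day 14.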

How the data were processed

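Single-cell RNA and 3 surface proteins were read by CITE-seq in 4 groups; the antibody counts were not used here. The authors deposited raw UMI counts per gene and barcode, made with Cell Ranger 6.1.1 on mm10, per the submitters' processing notes; how reads that map to several genes were counted is not given in the sources used here. Cells under 500 genes or over 10% mitochondrial UMIs were dropped (21551 cells left, median 3014.5 to 4921 UMIs), and no doublets were removed. Scrublet in scanpy 1.11.5 called 0, 5, 0 and 13 cells, and the calls of the day 50 libraries were left out as an alternative. The 0 calls at day 14 were treated as runs that had not worked. Doublets in the day 14 libraries, also among the deeper cells with 12 or more panel genes, were therefore not assessed. CPM intervals are exact Poisson and ratio intervals exact conditional binomial intervals at 95% (scipy 1.17.1); a gene at 0 UMIs in 1 library was set to the floor of 3 counts per library. UMIs come from molecules, but intervals and floors cover counting error only. Sums per library and state were tested with edgeR 4.0.16 in R 4.3.3 (TMM, filterByExpr, quasi-likelihood test), with DESeq2 1.42.0 as an alternative. The ratio calls were tried on counts drawn by the Poisson model that the intervals assume. They recovered 100% of genes changed 3-fold with 20 or more expected UMIs, with 0.821% to 2.04% false calls. Variation between libraries was not drawn, so that share does not describe the real comparisons. On counts drawn with the dispersions that edgeR had estimated, edgeR recovered 99% (cycling, 10968 genes) and 100% (S-type, 8003 genes) of genes changed 4-fold. The rule named all linker genes, core genes with 200 or more UMIs, and up to 4 further called members per comparison; of the companion lists, up to 4 per comparison. Hist1h2ad, Hist1h2af and the 4 genes not called at 12 panel genes were singled out after their values were seen. The histone genes, lists and limits were chosen with earlier results of these data known. Alternatives were a cycling limit of 3 or 8 panel genes, thinning to 2000 UMIs, no low-count filter and no library block. Others were each library left out, cycling cells left out, no median subtracted, and the 2 richest cells per gene or per sum left out. A limit of 12 panel genes, cells with fewer than 3 panel genes and the H2B sum without Hist1h2bc were added after seeing the data.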

Additional observations from a re-analysis of the deposited data

Results flagged for a closer look

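For 4 results the change over time went in opposite directions in the tissues; the difference itself was not tested, as each value compares 1 library with 1 library. Hist1h2bc was lower at day 50 in the brain (log2 ratio -0.68) and higher in the spinal cord (0.85), a difference of 1.53 for spinal cord minus brain. Its spinal cord ratio with no median subtracted was 0.52, under the 1.5-fold limit, and its brain ratio without cycling cells was -0.62 and not called. Hist1h1d was higher in the brain (1.17) and lower in the spinal cord (-1.31), a difference of -2.47. Hist1h2bj was at 1.55 in the brain and -1.43 in the spinal cord, a difference of -2.98, from 19 and 9 UMIs in the day 50 libraries. Of these, 47.4% and 44.4% came from 2 cells each, and without cycling cells 5 and 1 UMIs were left and Hist1h2bj was called in neither tissue. The linker histone sum was at 0.77 and -0.69, a difference of -1.45; without cycling cells it was at 0.91 and -0.31, the latter not called.

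For 2 genes the difference between tissues went in opposite directions at the days, again not tested. Hist1h1e was higher in the spinal cord at day 14 (0.99) and lower there at day 50 (-1.32), a change of -2.31 for day 50 minus day 14. Hist2h2ac was at 0.95 and -1.61 (-2.58 to -0.59), a change of -2.56, with 15 UMIs in the brain and 26 in the spinal cord at day 50. The median ratio of the 32 members compared at day 50 was -1.33, and 20 of them were called lower. The lower values at day 50 were thus not particular to these genes.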

How the results depend on the processing

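No pairing between tissues or days was used, since the labels give the libraries no replicate numbers and each tissue and day is 1 library. The tests of cell states did pair the sums within each library, with the library as a block. Without cycling cells, the brain over time had 0 members lower and a core sum of 1.0; the spinal cord over time had 5 lower, a linker sum of -0.31 and a core sum that turned to 0.43. With no median subtracted, the spinal cord over time had 2 higher and 21 lower, and the tissues at day 14 had 6 higher. For comparisons of libraries in this paragraph, the share over all genes is given above only without cycling cells. Counts of the other settings stand without it. Thinned to 2000 UMIs, the brain over time had 8 higher, 1 lower and a core sum of 0.65, the spinal cord over time 6 lower and a core sum of 0.092, and the tissues at day 50 had 8 lower. Without the 2 cells richest in core UMIs in each library, the brain core sum over time was 0.81. Its ratio with no median subtracted was 0.27 there and 0.41 in all cells. The all-gene median, with the 2 richest cells left out per gene, moved from -0.14 to -0.54. In cells with fewer than 3 panel genes, the brain over time had 0 lower and a core sum of 0.98, the spinal cord 8 higher, 5 lower, a linker sum of -0.29 and a core sum of 0.50, and the core sum between tissues at day 14 was -0.61. Members higher in cycling cells numbered 18 of 21 thinned (589 of 7224 genes) and 12 of 40 with no library block (223 of 10968). They numbered 12 of 17 against cells with no panel gene (647 of 6842). With 1 library left out they numbered 16 of 28 (341 of 9269) to 35 of 47 (1420 of 11592). Members lower numbered 0 at limits of 3, 8 and 12 panel genes, thinned, with DESeq2 and with no block, and 0 to 1 with 1 library left out; at unadjusted p under 0.05, 3, 1 and 0 were lower at those limits. Members lower in S-type cells numbered 17 of 20 thinned (167 of 4691 genes) and 45 of 61 with no low-count filter (466 of 16876). With 1 library left out they numbered 12 of 13 (121 of 4422) to 34 of 37 (461 of 9401). The linker share was 39.4%, 42.9%, 53.4% and 39.6% in cycling cells; 51.7%, 61.7% and 49.0% without them in brain day 14 and both spinal cord libraries; 47.0% and 58.4% thinned at day 14 in brain and spinal cord; and 50.8%, 62.8% and 49.4% with fewer than 3 panel genes in the same 3 libraries.

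Single genes turned in these settings. In the brain over time, without cycling cells and with fewer than 3 panel genes, Hist1h1b was at 1.23 and 1.38, Hist1h2ap at 1.34 and 1.16 and Hist1h2ae at 1.19 and 0.92, and Hist1h4a was at -0.34 thinned. In the spinal cord over time Hist1h1a was at 0.50 and 0.54 in the same settings and Hist1h2ae at 0.087 in the latter. Between tissues at day 14 Hist1h1a was at -0.62 and -0.81, and Hist1h3i at -0.94 in the latter. In cycling cells Hist3h2a was at 0.00957 thinned, Hist1h4c at -0.0497 with no block and Hist1h1c at 0.26 at 12 panel genes. Over all settings of single genes, 1302 values kept direction and side of the threshold, 118 lost the call, 45 gained it and 16 turned; the cause was not tested. Depth limits the brain day 50 values most, where 3 UMIs are 2.55 CPM.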
